A study of Mus musculus with 5 samples.

Results

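Cck, Sct and Gip encode the precursors of cholecystokinin, secretin and glucose-dependent insulinotropic polypeptide (GIP), peptide hormones made by enteroendocrine cells (EECs) of the small intestine. The genes were chosen by name, and all 3 were found, among 22042 genes in a table of bulk RNA sequencing and among 27998 genes in a matrix of single cells. The study asked how EECs of several subtypes, those that make CCK among them, act on food intake and on learning about food. For the single cells, the small intestinal epithelium of 4 C57Bl/6J mice aged 6 weeks, with no treatment, was sorted for tdTomato and pooled in 1 droplet library. These mice carried Neurog3-Cre and R26-LSL-tdTomato, so that the reporter marks cells that descend from progenitors with Neurog3, goblet, Paneth and other cells among them. For the bulk data, 6 mice of the same strain aged 6 to 8 weeks carried Cck-Cre and R26-LSL-tdTomato, and each gave 1 library of tdTomato+ cells, called CCK+, and 1 of tdTomato- cells, called CCK-. Mice A, B and F had been fasted overnight, and mice C, D and E had been fasted and then given Ensure, a liquid diet, which makes 4 groups of 3 libraries (CCK+ fasted, CCK+ refed, CCK- fasted and CCK- refed). Titles in the public record name CCK+ cells for all 4 bulk groups, while both sorts are named in the cell-type labels and in the table, and the level of Cck in each library was used as the check. The Cck promoter drives the Cre of that sort and the reporter stays on once Cre has acted, so a CCK+ cell need not contain Cck RNA at the time of sorting.

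CCK is released after a meal holding fat or protein, makes the gallbladder contract and the pancreas secrete enzymes, and curbs appetite. Secretin, released when acid enters the duodenum, makes the pancreatic ducts secrete bicarbonate, and GIP raises the release of insulin while glucose is high. All are made as longer precursors that convertases and other enzymes of the secretory granule cleave and modify, and a single EEC may hold more than one of them.

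The genes lie on different chromosomes. In the GRCm38 gene models, Cck (ENSMUSG00000032532) runs on the minus strand of chromosome 9 from 121489824 to 121495694, Sct (ENSMUSG00000038580) on the minus strand of chromosome 7 from 141278330 to 141279133, and Gip (ENSMUSG00000014351) on the plus strand of chromosome 11 from 96024545 to 96030831. Sct is the shortest, with 804 bases from end to end against 5871 for Cck and 6287 for Gip. The 250 bases directly before each start are shown because the 3 RNAs were all abundant in the same sorted cells; they are RefSeq sequences on build GRCm38.p6, written 5′ to 3′ on the gene's own strand, and capitals mark matches to CANNTG, the E-box that basic helix-loop-helix factors such as Neurog3 and Neurod1 can bind. The windows are chr9:121495695-121495944 for Cck, chr7:141279134-141279383 for Sct and chr11:96024295-96024544 for Gip.
Cck: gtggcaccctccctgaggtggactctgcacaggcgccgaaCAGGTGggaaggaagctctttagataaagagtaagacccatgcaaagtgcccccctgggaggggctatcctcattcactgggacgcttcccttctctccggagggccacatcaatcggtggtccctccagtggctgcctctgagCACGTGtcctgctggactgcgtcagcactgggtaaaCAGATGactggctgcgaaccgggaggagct
Sct: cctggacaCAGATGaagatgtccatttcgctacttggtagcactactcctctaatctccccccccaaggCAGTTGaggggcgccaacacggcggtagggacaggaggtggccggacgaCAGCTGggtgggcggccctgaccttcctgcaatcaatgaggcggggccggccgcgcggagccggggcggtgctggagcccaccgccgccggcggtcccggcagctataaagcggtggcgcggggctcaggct
Gip: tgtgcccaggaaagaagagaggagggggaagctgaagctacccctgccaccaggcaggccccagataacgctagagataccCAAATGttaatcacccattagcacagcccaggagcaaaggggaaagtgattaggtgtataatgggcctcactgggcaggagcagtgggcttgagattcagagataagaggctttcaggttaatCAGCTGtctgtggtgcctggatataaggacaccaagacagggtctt
All 3 windows held the E-box letters, 3 times before Cck, 3 times before Sct and 2 times before Gip. Searched on both strands, CANNTG occurred in 66.2% of 32841 mouse promoter windows of this length, and 12.2% held at least 3. The narrower CAGNTG, whose matches are all also matches to CANNTG, occurred 2 times before Cck, 3 times before Sct and 1 time before Gip, against 44.8% of windows with a match and 3.26% with at least 3. In the Gip window, the letters TAAT, the core that many homeodomain factors prefer, occurred 5 times and GATAA, the core of GATA factor sites, 2 times, counts that 5.54% and 4.28% of windows reached (a single match or more was found in 54.9% for the former and 22.6% for the latter). TAAT also had 1 match before Sct, and GATAA 1 match before Cck. The letters TATAA, which can share bases with TAAT, occurred 1 time before Sct, 24 to 28 bases from the start, and 2 times before Gip, 21 to 25 and 109 to 113 bases from it, but not before Cck (22.8% of windows held a match and 8.66% at least 2). TGACG, the core of cAMP response elements, had 1 match, before Cck, 43 to 47 bases from its start (17.8% of windows). GC content was 60% before Cck, 68% before Sct and 52% before Gip, and its median over all windows was 52.4%. Such matches describe the letters of these windows and nothing about binding.

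Together the 3 genes held 5.26% of all UMIs (unique molecular identifiers, 1 for each captured RNA molecule) of the 9451 cells, the barcodes in which over 1000 genes were detected and mitochondrial genes took less than 10% of UMIs. The cells held 1754 to 65130 UMIs, with a median of 5984. Sct was the most abundant of the 3, at 258.7 UMIs per 10000 over all cells, followed by Cck at 207.7 and Gip at 59.5, and they ranked 4, 6 and 17 among all genes. RNA outside cells was rich in them as well. In barcodes with 1 to 100 UMIs, taken as free RNA (410487 barcodes and 2007644 UMIs), Cck stood at 110.96 UMIs per 10000 (Poisson 95% interval 109.5 to 112.4), Sct at 170.7 (168.85 to 172.5) and Gip at 67.6 (66.5 to 68.8). All intervals given here cover counting error only, since there was 1 library of pooled mice and no replicate. Nearly every cell held UMIs of these genes: 99.5% of cells for Cck, 99.97% for Sct and 95.9% for Gip. In goblet-like cells, mucus cells that should lack the hormones, the shares were 99.7% for Cck, 99.97% for Sct and 97.1% for Gip (median depth 6781 UMIs), against 99.3%, 100% and 93.7% in EEC-like cells (median depth 4195 UMIs). Presence of a UMI thus did not separate the cell types, and levels were used instead. The 3523 goblet-like cells held Cck at 11.7, Sct at 21.5 and Gip at 7.70 UMIs per 10000, which is 10.5%, 12.6% and 11.4% of the levels in free RNA, a like fraction for each gene. The ratio of Sct to Cck UMIs was 1.54 in free RNA and 1.84 in goblet-like, 1.35 in Paneth-like, 1.27 in enterocyte-like and 0.951 in cycling or immature crypt-like cells, so the low levels resembled free RNA in proportion only roughly.

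Levels per cell fell into a low and a high range, most clearly for Cck. The median cell held 12.5 UMIs per 10000 of Cck, 32.6 of Sct and 5.89 of Gip, all far under free RNA. With 200 UMIs per 10000 as the lower threshold, 1364 cells (14.4%) reached it for Cck, 3106 (32.9%) for Sct and 248 (2.62%) for Gip, and the higher threshold of 500 was reached by 1246 (13.2%), 1895 (20.1%) and 197 (2.08%). The lower threshold is 1.80 times free RNA for Cck, 1.17 times for Sct and 2.96 times for Gip. Cck was close to all or none, since only 118 cells lay between 200 and 500, and the median was 1441 UMIs per 10000 in cells that reached 200 and 11.4 in cells that did not. Sct was graded. There were 1211 cells, 39.0% of those at 200, between 200 and 500, and 620 lay within 150 to 250, against 52 for Cck and 47 for Gip. A class of cells defined by Sct at 200 is therefore a range of levels and not a type. Gip, with 51 cells between 200 and 500 and a median of 1525 in cells at 200, was rare but high where present. The cells that reached 200 held 94.6% of the Cck UMIs of all cells, 91.4% of the Sct UMIs and 87.9% of the Gip UMIs.

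Cck was almost never high without Sct, whereas Sct was often high without Cck. At 200, 1245 cells (13.2%; exact 95% interval 12.5 to 13.9%) were high for Cck and Sct and not Gip, 1719 (18.2%) for Sct alone, and only 52 (0.550%) for Cck alone. Of the cells with Cck at 200, 95.8% (94.6 to 96.8%) had Sct at 200 too, while 22.2% of the cells without Cck did. Read the other way, 42.1% (40.3 to 43.8%) of the cells with Sct had Cck, against 0.898% of the cells without Sct. The reverse share depended on which barcodes were taken as cells, and was 64.7% in cells with more than 1500 genes and 69.6% over the UMI limit of Cell Ranger, where cells with Sct alone were 6.41% of cells, while Sct among cells with Cck stayed at 95.5% to 96.4% under every alternative. The relation was thus one-sided, with the size of the reverse share set in part by the choice of cells. Raised to 500, the thresholds left 1097 cells with Cck and Sct, 729 with Sct alone and 113 with Cck alone, so that 90.4% of cells with Cck also had Sct and 59.5% of cells with Sct also had Cck. Independent genes with the same shares at 200 would meet in 448 cells, and Cck and Sct met in 1307, a ratio of 2.92. This excess mixes cell types, since most of the 6187 cells (65.5%) with none of the 3 genes at 200 were not EECs. In the 4180 cells of clusters with at least 5 of 10 EEC markers high, a set chosen after the clusters had been seen, 96.9% of cells with Cck and 60.5% of cells without it had Sct. The set includes cluster 7 (525 cells, described below), in which all 8 goblet markers were high as well. In cluster 7, 40.8% of cells scored among the highest as doublets, barcodes with 2 cells, against 7.57% of all cells.

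**Figure D1:**
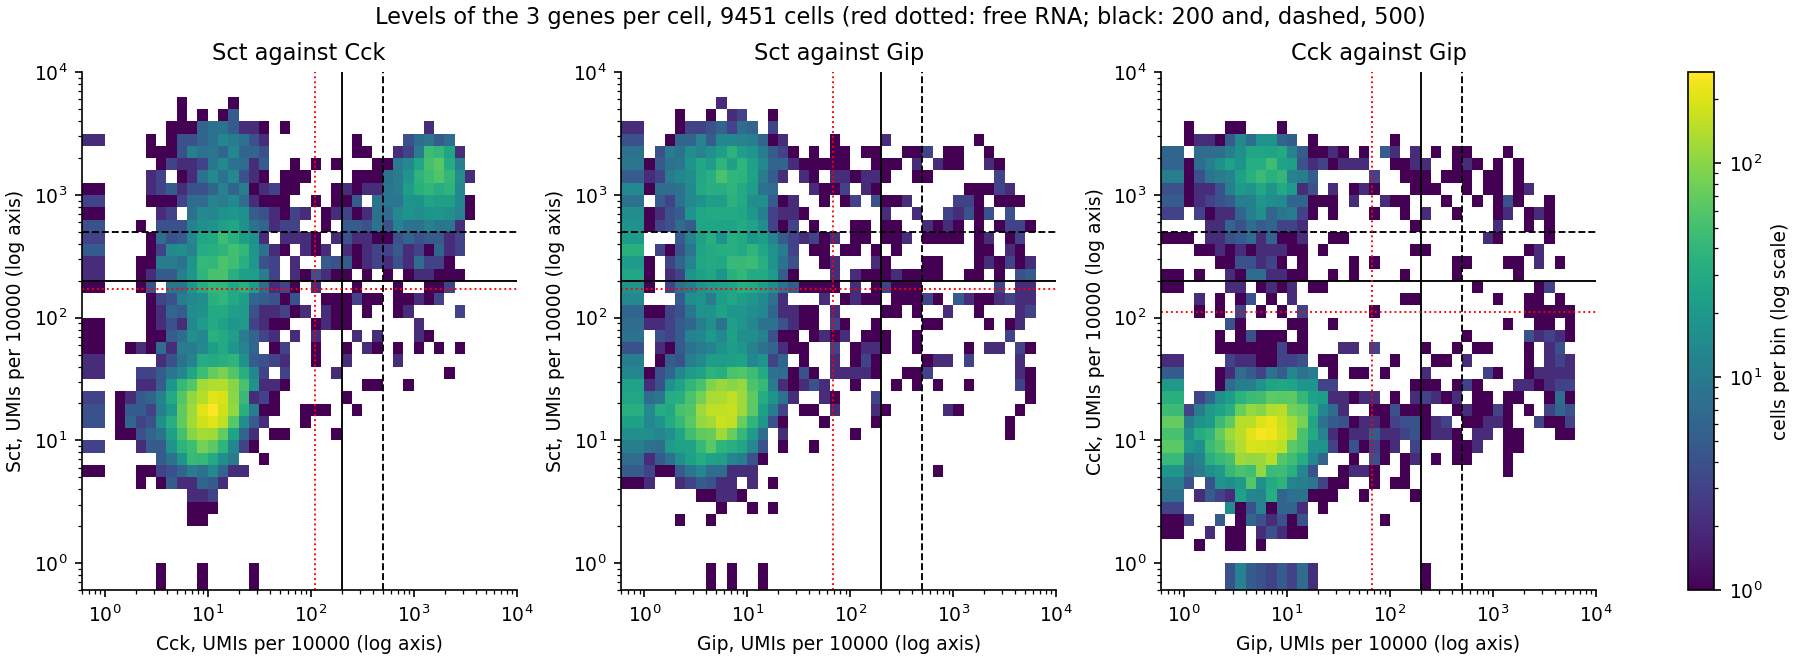
Number of cells (color, log scale) by the levels of 2 genes at a time, in UMIs per 10000 on log axes, with levels under 1 in the first bin; red dotted lines mark free RNA, and black lines mark 200 (solid) and 500 (dashed). Cells with Cck at 200 form a compact group that also has Sct at 200 in 95.8% of cases, whereas Sct runs without a gap from low to high levels among cells with little Cck.

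Gip was found with and without the other genes. Of the 248 cells with Gip at 200, 80 had it with Sct, 5 with Cck, 62 with both, and the others, 1.07% of all cells, alone. Sct was at 200 in 57.3% (50.8 to 63.5%) of them, against 32.2% of cells without Gip, and Cck in 27.0% (21.6 to 33.0%), against 14.1%. Over all cells Gip therefore met the other genes more often than the product of the shares would give, with 67 cells against 35.8 for Cck and 142 against 81.5 for Sct. Within the clusters with EEC markers, cluster 7 with its goblet markers included, the excess was gone. Cck was at 200 in 29.4% (23.5 to 35.9%) of cells with Gip there and in 31.0% (29.6 to 32.5%) of cells without Gip, and Sct in 62.9% (56.2 to 69.3%) and 72.2% (70.8 to 73.6%). At 500, 20.5% (14.8 to 27.2%) of these cells with Gip and 29.3% (27.9 to 30.8%) of those without it had Cck. A cell full of Gip UMIs has fewer UMIs left for Cck, and per 10000 UMIs of other genes the share of all cells with Gip that had Cck went from 27.0% to 33.7% at 200 and from 18.3% to 23.5% at 500, and rho between the genes in the 67 cells with both from -0.378 to -0.138. For Sct the share of all cells with Gip went from 57.3% to 66.7% at 200 on that scale. The rescaling was not run within the clusters with EEC markers, where Sct at 500 was found in 39.2% (31.9 to 46.8%) of cells with Gip and 44.6% (43.1 to 46.2%) of those without, with intervals that overlap. In these clusters at 200, Gip met Cck about as often as separate EEC traits would, and whether it met Sct less often depends on threshold and was not tested.

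**Figure D2:**
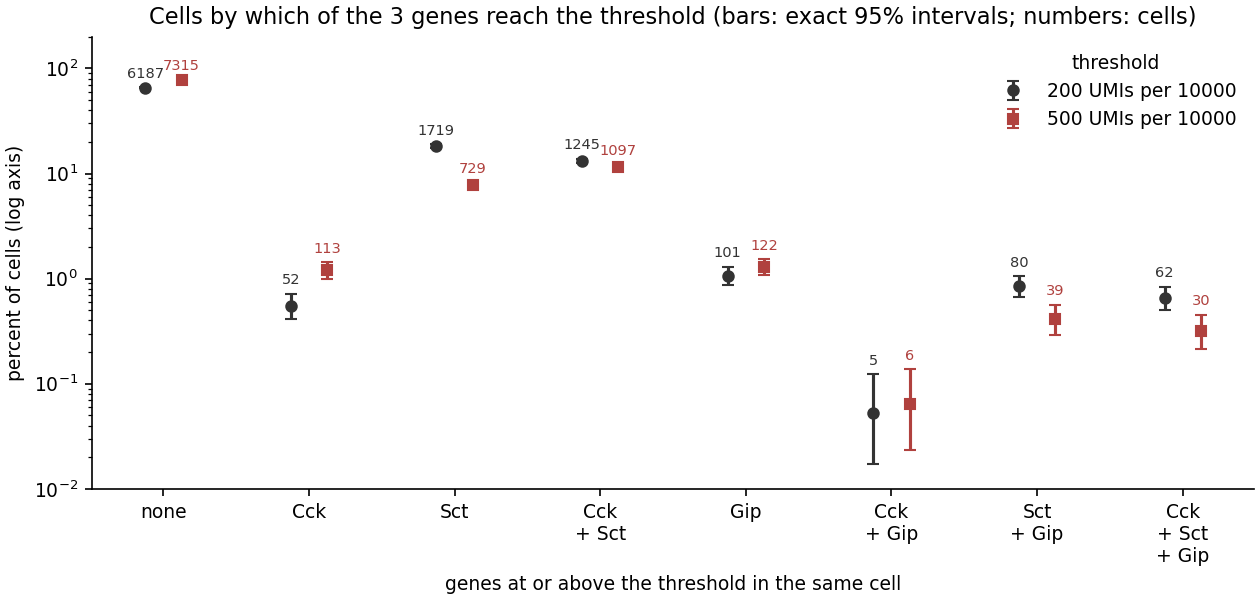
Percent of the 9451 cells (log axis) for each combination of genes at or above 200 (circles) or 500 (squares) UMIs per 10000, with exact 95% intervals and the number of cells. Sct alone and Cck with Sct are the most frequent combinations with a hormone at either threshold, and Cck with Gip but no Sct is the rarest, with 5 and 6 cells.

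Along the level of 1 gene, the share of cells with another did not move in 1 direction only. With rising Cck, Sct at 200 went from 21.8% of cells with Cck under 50 to 56.5% at 50 to 200, 79.7% at 200 to 500 and 96.0% at 500 to 1000, and it stayed at 97.9% and 97.1% in the steps above. With rising Sct, Cck at 200 went from 0.191% of cells with Sct under 50 to 9.58% at 200 to 500, 52.4% at 500 to 1000 and 77.7% at 1000 to 2000, and then was lower again, 48.3% (42.9 to 53.7%), among the 344 cells with Sct of 2000 or more. The cells with the most Sct were thus a mixture of cells rich in Cck and cells without it. Gip followed another course. It was at 200 in 1.74% of cells with Cck under 50, in 36.5% (27.7 to 46.0%) of the 115 cells with Cck from 50 to 200, and then in 14.4%, 9.16%, 3.21% and 1.43% of cells over the 4 steps of rising Cck. Gip was therefore most frequent among cells with intermediate Cck, but these were only 42 of the 248 cells with Gip, of which 139 had Cck under 50.

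In cells with both Cck and Sct the RNAs were present in similar amounts. The ratio of Sct to Cck UMIs had a median of 0.904 over 1307 cells, with the middle 50% of cells from 0.581 to 1.28, and 577 cells (44.1%) held more Sct than Cck. Across these cells of 1 library the levels were weakly related, with a Spearman rho of 0.268 on UMIs per 10000 (0.137 in the 1127 cells with both at 500). It was 0.503 (0.421 at 500) when both were taken per 10000 UMIs of other genes, a scale on which the genes share a denominator. The 3 genes took a median of 28.3% of a cell's UMIs in cells with Cck and Sct, 33.4% in cells with all 3, 34.0% in cells with Sct and Gip, and 0.379% in cells with none, and the highest share in any cell was 64.1%. In such cells a large part of the captured RNA molecules thus came from these few hormone genes. Cells with all 3 genes held a median of 905 UMIs per 10000 of Cck, 920.3 of Sct and 1118 of Gip, against 1468 for Cck and 1221 for Sct in cells with Cck and Sct, and 2443 for Gip in cells with Sct and Gip.

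Other hormones changed along the Sct level of cells with Cck. Nts, which encodes neurotensin, a peptide that slows gut motility, had a median over cells of 0 where Sct was under 200, 1.35 UMIs per 10000 at 200 to 500, 2.71 at 500 to 1000, 20.8 at 1000 to 2000 and 83.9 at 2000 or more. Nts at 50 or more was found in 0 of 57 cells of the lowest step and in 60.2% of 166 cells of the highest. Cells with Cck and much Sct were thus mostly cells with neurotensin RNA too. Gcg, the gene of glucagon and glucagon-like peptide 1, was highest at the low end, with a median of 19.7 where Sct was under 200 and of 1.43, 1.27, 3.34 and 8.54 in the steps above. Ghrl, the gene of the hunger hormone ghrelin, was at a median of 55.6, 68.2, 121, 136 and 92.4, with no single direction. Over all UMIs of cells with none of the 3 genes Ghrl stood at 79.0, and in free RNA the other EEC hormone genes summed to 84.9. The cells with none of the 3 included 112 of the 125 cells of cluster 19 (described below), whose leading genes included Ghrl. The level of 79.0 is thus not one of background alone, and the part of background in these medians was not tested. Chgb, the gene of the granule protein chromogranin B, was at 38.8 in the lowest step and 124 in the highest. Tph1, which encodes the enzyme that starts serotonin synthesis, stayed at medians of 0 to 3.49 in all 5 steps, so the median cell with Cck had little of it at any Sct level. A minority had more, with at least 10 Tph1 UMIs in 74 of 373 cells at Sct of 500 to 1000.

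Cells with Sct alone at 200 had a different set of genes. Their medians were 319 UMIs per 10000 for Chgb, 98.3 for Chga, the gene of chromogranin A, 42.5 for Tph1, 36.4 for Reg4 and 7.54 for Cartpt, and Tph1 UMIs were found in 98.9% of them, against 44.0% of cells with none of the 3 genes. These are genes of enterochromaffin cells, which make serotonin. Among these cells Tph1 hardly moved with the Sct level, with medians of 42.8, 41.8, 37.7 and 48.3 over the 4 steps from 200 upward, while Reg4 went from 192 to 7.96, 4.27 and 3.95 and Cartpt from 12.1 to 6.30, 0 and 0. Nts was at a median of 0 in every step. Pyy, the gene of peptide YY, had medians of 0, 2.52, 1.95 and 2.44 over these steps, with UMIs in 37.3% of cells in the lowest and 51.9% to 55.7% in the others. Low and high Sct thus went with different partner genes in cells of which 98.9% had Tph1 UMIs. These cells also lay in different clusters (described below), 53.3% in cluster 2, 15.5% in cluster 6, 15.1% in cluster 13 and 11.3% in cluster 7. Median Sct over all cells of these clusters was 340, 183, 2193 and 160, in that order, and the part of clusters in the changes was not tested. Of the 2 classes divided by Sct level, median Nts rose with Sct in cells with Cck and stayed at 0 in cells with Sct alone. The cells with Sct alone were also shallower, with a median of 3087 UMIs against 6333 in cells with Cck and Sct, and the part of depth in these medians was not tested.

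**Figure D3:**
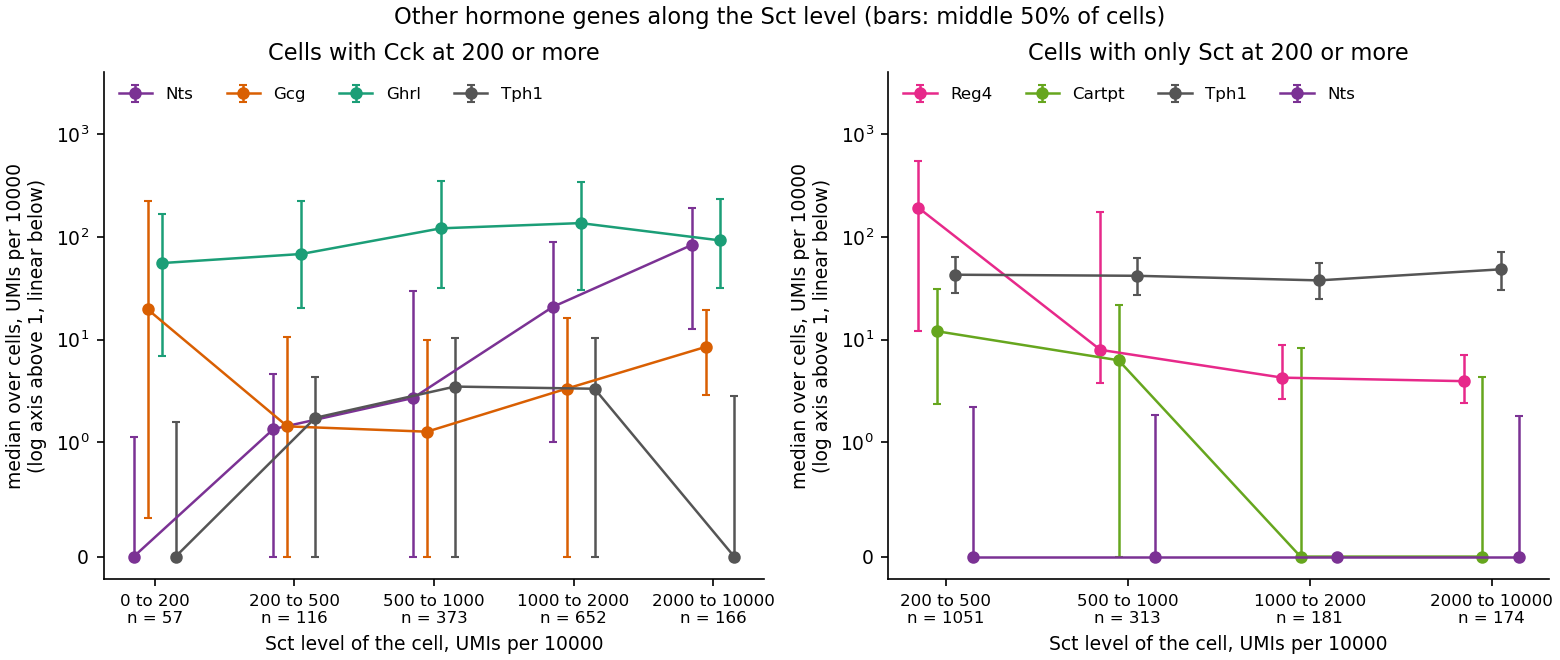
Median level over cells of other hormone genes and of Tph1 and Reg4, in UMIs per 10000 (log axis above 1, linear below). Cells are grouped by Sct level, with Cck at 200 or more on the left and only Sct at 200 or more on the right. Bars span the middle 50% of cells and n is the number of cells. Nts rises with Sct in cells with Cck, from a median of 0 to 83.9, and stays at 0 in cells with Sct alone, in which Reg4 falls from 192 to 3.95 and Tph1 stays between 37.7 and 48.3.

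The few cells with Cck and little Sct were not a uniform class. Gcg was detected in 42 of these 52 cells, with a median of 24.2 UMIs per 10000, against 2.98 in cells with Cck and Sct and 0 in cells with Sct alone. Tff1, Gkn1, Gkn2 and Tff2, genes of the stomach lining, led the list of their genes by ratio to cells with none of the 3, but nearly all of those UMIs came from 1 cell for each gene (99.8% to 100%). Scg2 had a median of 18.9 and Etv1 of 2.14, near those of cells with Cck and Sct (27.8 and 1.38) and far from cells with Sct alone (0 and 0). Cells with Cck thus shared Scg2, a secretogranin gene, and Etv1, a transcription factor gene, with or without Sct. Sct in these 52 cells had a median of 91.5, below free RNA and above the 20.2 of cells with none.

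Genes with the highest ratio to cells with none of the 3 were, for cells with Cck and Sct, Pzp, Qpct, 3110004A20Rik, Crp and Ffar1. Ffar1, the receptor for long-chain fatty acids that triggers CCK release, had a UMI in 50.4% of those cells and in 0.921% of cells with none. Qpct, a glutaminyl cyclase that closes the end of some peptides, had one in 43.8% against 0.776%. For cells with Sct alone they were Stmn2, Prrx2, Pkib, Man1c1 and Serpina1e, which had a UMI in 6.86% to 61.8% of the cells. For cells with Gip alone they were Fabp5, Rbp4, Isl1, Scg2 and Cpe, and Fabp5 and Rbp4 led as well in cells with Sct and Gip and in cells with all 3. Fabp5, a fatty acid binding protein, had a median of 28.7 in cells with Gip alone, 30.1 with Sct and Gip and 26.1 with all 3, but 1.35 in cells with Cck and Sct and 0 in cells with Sct alone, so it went with Gip whatever else a cell held. Rbp4, the retinol carrier, had medians of 15.8, 16.1 and 33.9 in the same classes with Gip, and also 12.5 in cells with Cck and Sct.

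Cells with Gip and Cck carried features of both groups. The 67 cells with both at 200 held Gip at 1298 and Sct at 983 UMIs per 10000, whereas the 181 cells with Gip and no Cck held them at 2525 and 277. Median Scg2 was 18.1 against 5.52 and median Rbp4 34.0 against 15.8, while median Fabp5 was 27.0 against 29.4. Nts had 14.7 UMIs per 10000 in the cells with both and 0.579 in those with Gip and no Cck, and Ghrl 47.3 against 13.5. Scg2, Nts and Ghrl, high in cells with Cck, were thus higher in cells with Gip when Cck was there. Genes that went with Gip had no common direction: Rbp4 was higher, Isl1 was at 3.22 (2.72 to 3.79) against 3.73 (3.38 to 4.10) over all UMIs, with intervals that overlap, and others were lower, Fabp5 at 34.97 (33.3 to 36.7) against 40.5 (39.3 to 41.6) and Rgs4 at 1.23 (0.926 to 1.601) against 2.00 (1.75 to 2.28). Barcodes with 2 cells would give the same picture. Of the cells with both, 16.4% (8.49 to 27.5%) belonged to the 715 cells that scored highest as doublets, against 9.39% (5.57 to 14.6%) of cells with Gip and no Cck and 15.9% (13.9 to 18.0%) of cells with Cck and no Gip, and intervals that overlap do not set them apart. Single cells and doublets in this class cannot be told apart by these values.

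Genes of peptide maturation, enzymes and their regulators Pcsk1n and Scg5, were present in every class with a hormone. The 9 genes summed to 20.9 UMIs per 10000 in cells with Cck alone, 22.8 with Sct alone and 27.0 with Cck and Sct. They summed to 21.5 with Gip alone, 29.98 with Sct and Gip and 31.9 with all 3. Cells with none had 2.70 and free RNA 5.93. Pcsk1n had the most UMIs of the list in cells with Sct alone (9.02 UMIs per 10000) and in cells with none (0.793), and Cpe in the other classes. Pcsk1, prohormone convertase 1, had a UMI in 65.4% of cells with Cck alone, 73.1% with Sct alone and 56.4% with Gip alone, and in 20.9% of cells with none. Cpe, which trims the peptides after cleavage, had a median of 15.7 in cells with all 3 genes and 3.58 in cells with Sct alone. Pcsk2, the other main convertase, was at a median of 0 in all these classes. Receptors for the hormones were nearly absent, with sums of at most 0.0246 UMIs per 10000 in any of the 7 classes of more than 5 cells.

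Leiden clusters made without the 3 genes sorted the same cells. Of 24 clusters, 4 had a mean of at least 200 UMIs per 10000 for Cck, 9 for Sct and 1 for Gip, and 5, 9 and 2 stood above free RNA. Cck was highest in cluster 5, at 1664 (1661 to 1668), followed by cluster 8 at 1402, cluster 18 at 1076 and cluster 16 at 212. Sct was highest in cluster 13, at 2236 (2226 to 2245), then in cluster 8 at 1472, cluster 5 at 1126, cluster 18 at 1078 and cluster 2 at 513. With coarser clusters the highest Sct lay in a cluster rich in Cck. Gip had 1 peak, cluster 16 at 2860 (2849 to 2870.2), and the next was cluster 22 at 69.8. Neighbors in the order of levels had overlapping intervals in 8 of 23 pairs for Cck, 6 for Sct and 11 for Gip, and none of these among the 5 highest clusters of a gene. Lowest were cluster 4 for Cck (11.1) and Sct (18.8), a goblet-like cluster, and cluster 20, an enterocyte-like one, for Gip (6.65).

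**Figure D4:**
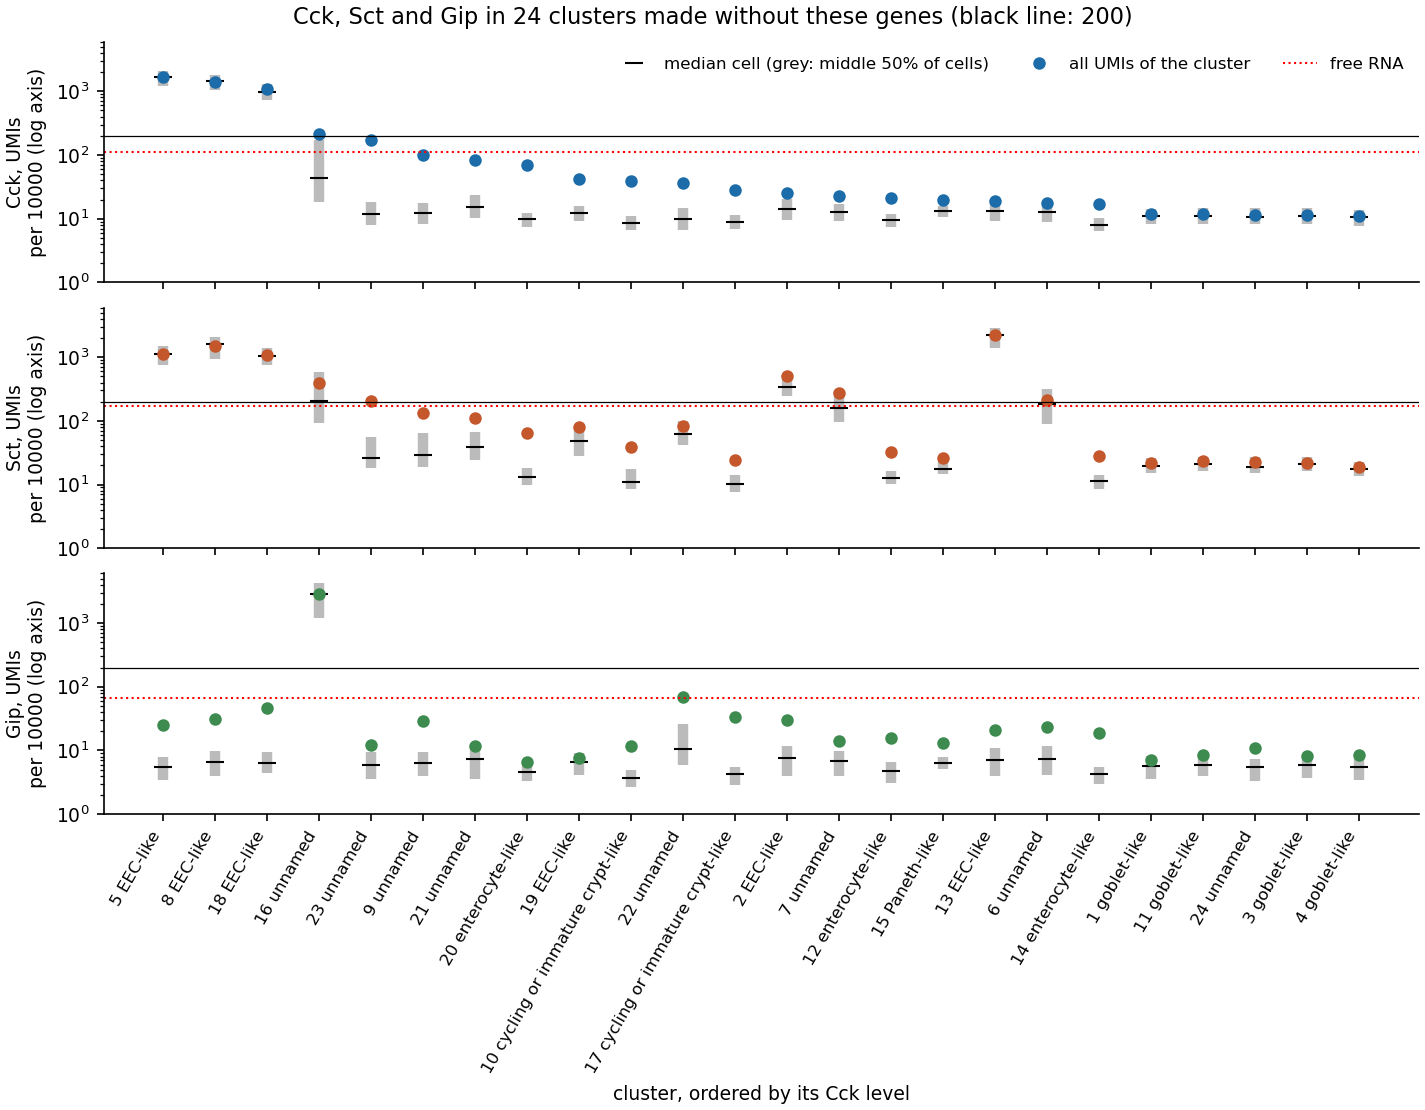
Levels of Cck, Sct and Gip in 24 clusters made without these genes, in UMIs per 10000 on log axes; points are all UMIs of a cluster, dashes its median cell, grey bars the middle 50% of cells, red dotted lines free RNA and black lines 200. Clusters 5, 8 and 18 have all of Cck and Sct above 1000, cluster 13 has Sct at 2236 with Cck at 19.1, and cluster 16 alone has a high Gip.

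The clusters rich in Cck, named EEC-like from other markers, differed in their balance of Cck and Sct. Leading genes included Pzp, Crp and Uts2b in cluster 5, and Gast, Ffar1, Onecut3 and Nts in cluster 18. In cluster 8 the stomach lining genes Tff1, Gkn2, Gkn1 and Tff2 came first, and Gcg and Ffar1 next. The ratio of Sct to Cck had a median over cells of 0.707 in cluster 5, 1.13 in cluster 8 and 1.10 in cluster 18. The share of cells with more Sct than Cck was 26.0%, 64.8% and 58.2%, in that order. These values cover only cells with both genes at 200. Over all UMIs the ratio was 0.676 in cluster 5, 1.05 in cluster 8 and 1.00 in cluster 18, so cluster 5 leaned to Cck and the other 2 had about as much of each. Of the 141 cells of cluster 18, 35.5% scored among the highest as doublets (7.57% of all cells), and its 5 of 7 high enterochromaffin markers and Tph1 at 19.0 UMIs per 10000 are read with that in mind. Cluster 8 held 22 of the 52 cells with Cck and little Sct, and it had the most Gcg, 50.9 UMIs per 10000. Clusters 13 and 2, EEC-like with Tph1 at 51.6 and 50.6, had Sct and little Cck, at Sct to Cck ratios of 117 and 20.3. Cluster 16, led by Cnr1, Nnat, Fabp5 and Rgs4 and left without a name by the marker lists, held 64.4% of the cells with Gip alone, 61.3% of those with Sct and Gip and 48.4% of those with all 3. In it 90.8% of cells had Gip at 200, 51.5% had Sct and 23.3% had Cck, and its median Cck of 43.6 was above that of goblet-like cells (10.96) but under free RNA. The other cells with all 3 genes were mostly in the clusters rich in Cck, 14 in cluster 8, 10 in cluster 5 and 6 in cluster 18.

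Some cluster means lay far above the cluster's median cell. In cluster 23, led by Ccl4, Gzmb and Cd3g, genes of lymphocytes, Cck was at 170 and Sct at 208 UMIs per 10000, but the median cell held 11.8 and 26.0, and 7 and 10 of its 63 cells reached 200. Cluster 9, led by genes such as Rgs13 and Chat, had Cck at 100.9, under free RNA, with a median of 12.4. These medians resemble those of goblet-like cells. Cluster 7, with Sct at 274, had 40.8% of its 525 cells scored that high as doublets, against 7.57% of all cells.

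Over the 24 clusters, the genes whose levels on a log scale were most like Cck, among 7486 genes compared, were Scg2 and Ffar1 (Pearson r 0.94 for both), Gnai1 (0.93), Etv1 and Gm11992 (0.92 for both). Most like Sct were Dner and Olfm1 (0.95 for both), Adgrg4 and Myl7 (0.94 for both) and Nbea (0.92). Gip had a single close match, Fabp5 (0.91), followed by Sphkap (0.82), Mctp2 (0.79), Rgs4 (0.74) and Pax6 (0.73). Between the hormones themselves r was 0.70 for Cck and Sct, 0.42 for Sct and Gip and 0.40 for Cck and Gip. All points come from 1 library and share its free RNA, so these values describe the clusters and carry no test.

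In the sorted bulk libraries, values are normalized counts of the authors, which are not per gene length, so that the levels of Cck, Sct and Gip are compared within a gene only and the gene with the most counts in a list need not have the most RNA molecules. Cck in CCK+ cells was at 20166, 15183 and 25000.5 in fasted mice A, B and F and at 32592, 26039 and 14837 in refed mice C, D and E. In CCK- cells it was at 43.2, 65.3 and 86.0 and at 50.1, 29.997 and 27.6. Every CCK+ library was thus above every CCK- library, by at least 172-fold, as the sort on a reporter driven by Cck requires, which checks the labels and is no finding. Sct was at 9095, 4670.2 and 7693 in fasted and 11051, 11603.5 and 7393 in refed CCK+ cells, and at 58.4, 65.0 and 44.2 and then 41.2, 47.2 and 39.3 in CCK- cells. Gip was at 34279, 10775 and 18225 in fasted and 20310.1, 29342 and 18175 in refed CCK+ cells, and at 39.9, 40.04 and 78.0 and then 33.3, 33.3 and 49.1 in CCK- cells. Both followed Cck into the CCK+ sort without overlap, the lowest CCK+ library standing 71.9-fold above the highest CCK- library for Sct and 138-fold for Gip. The share of all genes without such overlap was not counted, and 19.6% were called higher in CCK+ cells in the test described below. Fasted and refed libraries overlapped for each gene in both sorts. In bulk cells, fewer cells that make a hormone and less RNA per cell cannot be told apart.

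**Figure D5:**
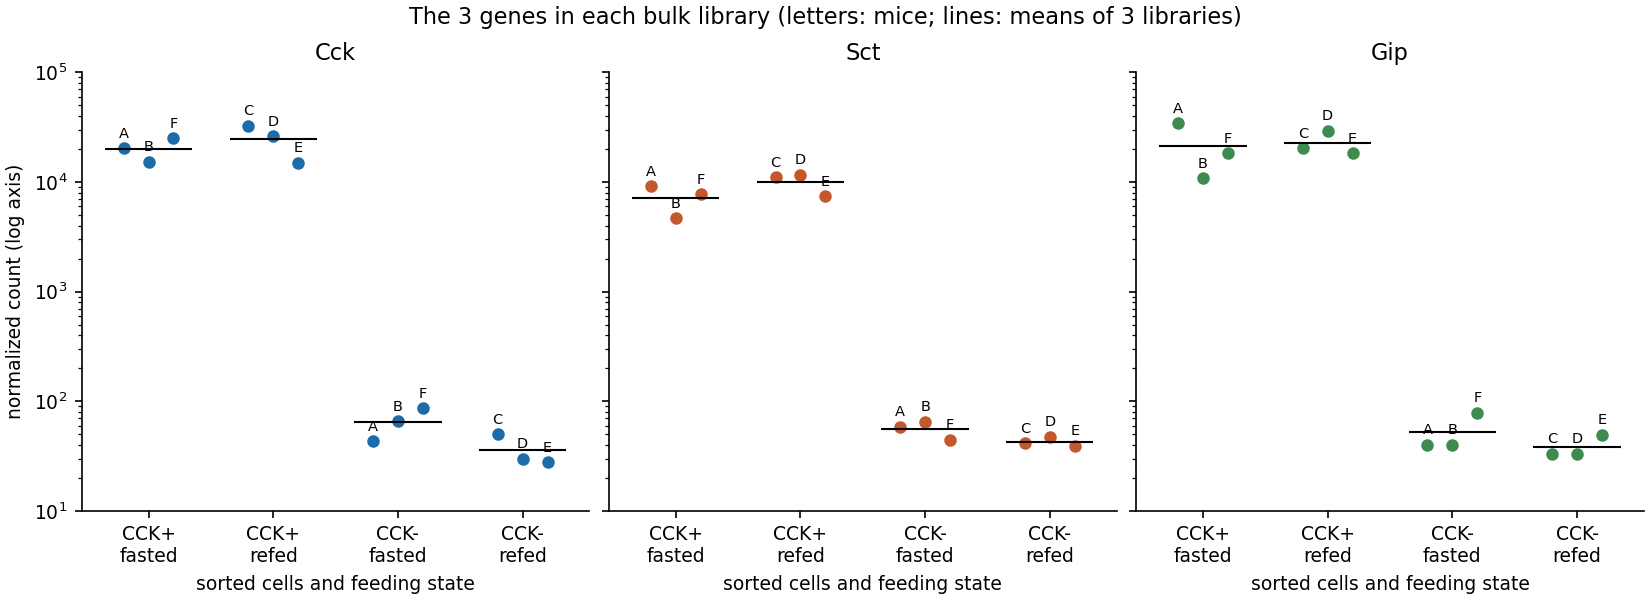
Normalized counts (log axis) of Cck, Sct and Gip in each bulk library, with mouse letters and the mean of 3 libraries; counts are not per gene length, so levels are compared within a gene. All 6 CCK+ libraries lie at 4670.2 or more and all 6 CCK- libraries at 86.0 or less, and fasted and refed libraries overlap.

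With limma on log2(normalized count + 1), all 3 genes were higher in CCK+ cells, as were 19.6% of all genes (33.7% were called in either direction at an adjusted p under 0.05). The log2 difference, higher in 6 of 6 mice, was 7.38 (SE 0.17; Benjamini-Hochberg adjusted p 4.88e-12) for Sct and 8.84 (SE 0.25; 2.95e-11) for Gip by limma, and 8.81 (SE 0.22) for Cck. Sct was thus enriched less than Gip. Within each mouse the ratio of CCK+ to CCK- cells was between 234 and 881 for Gip and between 71.9 and 268 for Sct. Summed, the 3 genes took 0.310% to 0.949% of the normalized counts of a CCK+ library and 0.00112% to 0.00183% of a CCK- library. Mouse B had the lowest Sct and Gip of the CCK+ libraries and the lowest sum of EEC markers, 65772 against 107528 to 238313 in the others, with the highest sum of enterocyte markers, 366940 against 148516 to 246759. The part of other cells in its values was not tested.

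Refeeding gave no called change in the 3 genes. In CCK+ cells, limma put refed against fasted at a log2 difference of 0.24 (SE 0.32; adjusted p 0.762) for Cck, 0.51 (SE 0.24; 0.305) for Sct and 0.23 (SE 0.36; 0.804) for Gip, so 0 of 3 were called, against 2.55% of all genes, 1.31% higher and 1.23% lower (3736 genes had an unadjusted p under 0.05). The mean was higher in refed mice for each gene, but refed mouse E was below fasted mice A and F for all 3, and the direction turned for Gip without mouse B (-0.18) and for Cck without mouse C (-0.0038). Without mouse B the difference for Sct fell from 0.51 to 0.23. In CCK- cells the values by limma were -0.83 (adjusted p 0.280) for Cck, -0.37 (0.629) for Sct and -0.39 (0.778) for Gip, with 0 of 3 called against 1.23% of genes, 0.708% higher and 0.526% lower (2635 at an unadjusted p under 0.05). Without CCK- fasted F the value for Gip was -0.074. Opposite signs in the sorts gave a difference of the refeeding change of 1.07 (SE 0.45; adjusted p 0.771) for Cck, 0.88 (SE 0.34; 0.739) for Sct and 0.62 (SE 0.51; 0.831) for Gip by limma, and again 0 of 3 were called, against 0.00454% of genes (1378 at an unadjusted p under 0.05). For Gip it was 0.21 without CCK+ fasted B and 1.05 without CCK+ fasted A. Inside each mouse, the ratio of CCK+ to CCK- for Sct was 156, 71.9 and 174 in fasted mice A, B and F and 268, 246 and 188 in refed mice C, D and E. For Cck it was 467, 233 and 291 in fasted and 651, 868 and 537 in refed mice. All refed mice stood above all fasted mice in this ratio for Sct and Cck, but not for Gip. The share of all genes that separate in this way was not counted, so no result about these genes is read from it. None of the 3 genes passed the correction over all genes for the difference of the refeeding change.

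The proportion of the hormones within CCK+ libraries varied between mice. The ratio of Sct to Cck was 0.451, 0.308 and 0.308 in fasted mice A, B and F and 0.339, 0.446 and 0.498 in refed mice C, D and E, and the groups overlapped. Its log2 difference of 0.27 had an exact two-sided permutation p of 0.3 (adjusted 0.6), and that of Gip to Cck was -0.01 with an exact p of 1, but 3 against 3 libraries allow no p under 0.1, so this test could not pass 0.05 whatever the values and says nothing for or against a change. With mouse A left out, the difference was 0.46 for Sct to Cck and 0.40 for Gip to Cck. It was 0.15 for the former without mouse E and -0.23 for the latter without mouse B. Gip to Cck was most variable, from 0.623 in refed mouse C to 1.70 in fasted mouse A.

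Genes that work with the 3 hormones were higher in CCK+ cells in most lists, where 19.6% of all genes were called higher and 14.1% lower. By limma, all 9 peptide maturation genes were higher, with a median log2 difference of 4.61 against 0.09 for all genes, among them Pcsk1 (4.62), Cpe (5.57) and Pam (2.30), the enzyme that amidates CCK and secretin. Of 20 EEC transcription factor genes, 17 were higher (median 5.04), Etv1 (8.12) and Neurod1 (6.28) among them, and 1, Gata4, was lower (-0.65). Of 15 nutrient receptors and sensors, 12 were higher (median 5.18), such as Ffar1 (5.18), Casr (6.50) and Trpa1 (6.17), and 1, the glucose transporter Slc5a1, was lower (-1.50). Of 4 genes of the gastrin and glucagon families, Gcg (8.83) and Gast (2.27) were higher and none was lower (median 1.24), and all 8 other EEC hormone genes were higher (median 6.43), Nts by 8.42. Receptors for the 3 peptides had few counts, with means of at most 11.2, and 1 of 3, Gipr, was called higher (1.67).

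Markers of other cell types were present in the CCK+ libraries, and other cells, free RNA and cells that carry the reporter without being EECs cannot be told apart there. Among all genes, 19.6% were called higher and 14.1% lower in CCK+ cells. All 10 EEC markers were higher in CCK+ cells, Chgb with the most counts, with sums of the list of 65772 to 238313 against 1406 to 2816 in CCK- cells, and 6 of 7 enterochromaffin markers were higher. Enterocyte markers remained at sums of 148516 to 366940 in CCK+ cells, Apoa1 with the most counts, with 6 of 8 lower than in CCK- cells, where sums were 386097 to 575981. Immune markers were higher for 6 of 7 genes, but not for the one with the most counts, Cd74 (-0.47), and their sums were 4358 to 9570 and 2746 to 9212. Cycling or immature crypt markers were higher for 4 of 8, with 1 lower (sums of 1841 to 4335 and 1330.1 to 3164, Mki67 with the most counts). Goblet markers, near the shares of all genes, were higher for 1 of 8 and lower for 2 (sums of 21441 to 39713 and 23422 to 48768, Muc2 with the most counts), and 0 of 7 Paneth (sums of 1680.3 to 25182 and 2872 to 14699.5, Lyz1 with the most counts) and 0 of 6 tuft markers (243 to 975.2 and 386 to 1209, Trpm5 with the most counts) were called. Their part in the levels of Cck, Sct and Gip was not tested.

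After refeeding, few members of the lists were called. In CCK+ cells, where 1.31% of all genes were called higher and 1.23% lower, limma called 1 of 7 enterochromaffin markers, Reg4 (log2 difference 1.31, adjusted p 0.0285), and 1 of 8 cycling markers, Mki67 (0.96, 0.0344), higher, and 1 of 15 nutrient genes, Slc5a1 (-1.02, 0.0391), lower. In CCK- cells (0.708% of all genes higher and 0.526% lower) it called 1 of 8 goblet markers, Agr2 (1.00, 0.0297), and 2 of 8 cycling markers higher. No member of the other lists was called in either sort, and none of any list for the difference of the refeeding change. Medians in CCK+ cells still lay above the 0.01 of all genes for several lists, at 1.35 for Paneth markers, 1.07 for other EEC hormones, 0.91 for enterochromaffin and for cycling markers, 0.65 for peptide maturation and 0.58 for EEC markers. In CCK- cells the medians were 1.18 for Paneth and 0.89 for cycling markers. They were -0.12 there for other EEC hormones, -0.05 for enterochromaffin markers, -0.03 for peptide maturation and -0.30 for EEC markers. Enterocyte markers in CCK+ cells lay below the 0.01 of all genes at -0.33, with Apoa1 at -1.03 and Alpi at -1.03, neither called, near the -1.02 of Slc5a1. Chgb, which held most of the sum of EEC markers, was at 54338 to 123321 in fasted and 152468 to 211125 in refed CCK+ libraries, but was not called by limma (1.11, adjusted p 0.0814), and its relation to the refed values of Cck, Sct and Gip was not tested. Nts, the partner of Sct in single cells with Cck, had means of 2343 in fasted and 5797 in refed CCK+ cells, a log2 difference of 1.26 with an adjusted p of 0.0945 by limma, which was not called. Rescaling the libraries moved the median of all genes in CCK+ against CCK- from 0.09 to 0.17 (75th percentile) and 0.35 (sum without the 3 genes), and in refed against fasted CCK+ cells from 0.01 to 0.02 and 0.20, with 58.2%, 66.1% and 84.6% of called genes higher in the former and 51.5%, 47.2% and 77.6% in the latter. Under the sum without the 3 genes, goblet markers turned to 4 higher and 0 lower, cycling markers to 7 and 0, enterocyte markers to 0 and 5, and Gata4 was no longer called lower; 1 of 8 other EEC hormone genes and 3 of 8 cycling markers were then called higher in refed CCK+ cells, while Cck, Sct and Gip kept their directions.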

How the data were processed

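RNA was measured in 1 droplet library of pooled sorted cells and in 12 bulk libraries of 6 mice. The droplet values are UMI count values that the authors deposited after Cell Ranger 2.0.1 (mm10); the bulk values are signal values, normalized counts that the authors deposited after Trim Galore 0.6.7, Salmon 1.6.0 with the GRCm39 cDNA set, tximeta and DESeq2. No per-sample column was left without a sample. Cells were barcodes with more than 1000 genes and under 10% mitochondrial UMIs; barcodes with 1 to 100 UMIs were free RNA, and no background was subtracted. The 715 cells with the highest doublet scores (18902 simulated doublets, 0.8% per 1000 cells) were kept, and leaving them out was an alternative. Leiden clusters (2000 variable genes, 40 components, 15 neighbors, resolution 1) were made without Cck, Sct and Gip. The rule that names a cluster (3 markers high, at 25% of the highest cluster and in 10% of cells) and the set of clusters with EEC markers were set after seeing the data. Intervals are Poisson or exact binomial at 95%. Bulk values were tested as log2(normalized count + 1) with limma (trend, 4 groups), Benjamini-Hochberg adjusted over 22042 genes and called at an adjusted p under 0.05. Residuals of CCK+ and CCK- libraries of the same mouse correlated at 0.0463 to 0.0650, and those of other pairs at -0.0455 to -0.00973. Every pair of the same mouse thus lay above every other pair, by a small amount. Mice were not blocked in the main model, since feeding states lie between mice, and the block was run as an alternative. Members and lists (peptide maturation, receptors, gastrin and glucagon families, other EEC hormones, EEC transcription factors, nutrient receptors and sensors, and markers of EECs, enterochromaffin, goblet, enterocyte, Paneth, tuft, cycling and immune cells) were chosen with earlier results of these data known. Cckbr, Adcyap1, Insl5 and Lrmp in the bulk table, and Mln in both data sets, were absent by symbol and were not analysed here. Alternatives were other limits of genes, UMIs and free RNA, thinning, levels per 10000 UMIs of other genes, other clusters, scalings and pseudocounts, no trend, mouse as a block and leaving out 1 library at a time. The work was done in R 4.3.3 (limma 3.58.1; data.table, version 1.17.8) and Python 3.11.15, with leidenalg 0.10.2 and python-igraph 0.11.9 for clusters, scikit-learn 1.9.0 for neighbors, scipy 1.17.1 for intervals, pandas 2.3.3 and numpy 2.4.6 for tables and matplotlib 3.10.9 for figures.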

Additional observations from a re-analysis of the deposited data

Results flagged for a closer look

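Gvin1, an interferon-induced GTPase gene, was the only gene whose refeeding change differed between the sorts by limma (adjusted p 0.000161), with group means of 270.3 in CCK+ fasted, 481.2 in CCK+ refed, 0 in CCK- fasted and 191.2 in CCK- refed cells. No fold is given because all CCK- fasted libraries stood at 0 and its size depends on the pseudocount, and with a pseudocount of 10 it was not called. The 930 barcodes with more than 1000 genes that were left out for 10% or more mitochondrial UMIs (median 4150.5 UMIs) held Cck at 200 UMIs per 10000 in 4.84%, Sct in 14.8% and Gip in 2.47%, against 14.4%, 32.9% and 2.62% of the cells. Cck and Sct were thus less frequent there and Gip about as frequent, with 38 barcodes high for Cck and Sct and 3 for Cck alone.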

How the results depend on the processing

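The relation of Cck to Sct held under every alternative, with Sct at 200 in 95.5% to 96.4% of cells with Cck. The reverse share, 42.1%, moved with the choice of cells, to 38.8% (more than 500 genes), 64.7% (more than 1500), 69.6% (Cell Ranger limit) and 39.5% (without the highest doublet scores). Cck among cells with Gip moved from 27.0% to 21.5% (more than 500 genes) and 33.7% (per UMIs of other genes), and Sct among them from 57.3% to 66.7% (the latter). At resolution 0.5, 2 clusters reached 200 for Cck and 5 for Sct. Sct was then highest, at 1491, in a cluster with Cck at 1409, and a cluster with Cck at 21.0 held Sct at 600. Free RNA ranged over 82.6 to 138 for Cck, 145 to 192 for Sct and 59.1 to 72.7 for Gip. In bulk, fasted libraries alone gave 2169 genes for CCK+ against CCK-. The mouse as a block gave 7671 against 7431 genes, and 1 against 1 for the difference of the refeeding change. These counts do not show whether the same genes were called. Refed against fasted CCK+ cells had 561 genes, 119 without the trend, and 876, 193, 351, 103, 183 and 333 without CCK+ fasted A, B and F, CCK+ refed D and E and CCK- refed D. In CCK- cells there were 272, 66 without the trend, and 79 (without CCK- refed D) to 268 (without CCK+ fasted B) with 1 library left out, where omitting any CCK- library, CCK+ fasted F or CCK+ refed C, D or E moved the count more than 1.5 times. The difference of the refeeding change had 1 gene, 0 with a pseudocount of 10, 2 without the trend, and 5, 3, 2, 3, 2 and 6 without CCK+ fasted A, CCK+ refed E, CCK- fasted A and F and CCK- refed D and E. The 3 genes kept their direction except in refed CCK+ cells, for Gip without mouse B (-0.18) and Cck without C (-0.0038), and for the log2 ratio of Gip to Cck without A (0.40) and without C (0.29). With 1 library left out, these differences reached 0.56 for Cck without E, 0.66 for Gip without A and -0.23 for the ratio of Gip to Cck without B, and fell to 0.23 for Sct without B. The log2 ratio of Sct to Cck went to 0.46 without A and to 0.15 without E. For Gip, the change in CCK- cells went to -0.074 without CCK- fasted F. The difference of the refeeding change for Gip ran from 0.21 without CCK+ fasted B to 1.05 without CCK+ fasted A. Limits are 1 droplet library without replicates, 3 mice per bulk group and markers of other cell types in the sorted libraries.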
